A study of Mus musculus with 2 samples.

Results

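The complement components described here are 9 genes, *C1qa*, *C1qb*, *C1qc*, *C3*, *C4b*, *C1s1*, *C1ra*, *Cfb* and *C3ar1*, out of 33696 genes counted in each of 2 single-cell RNA sequencing libraries from mouse abdominal aorta. They were taken by gene symbol, and all 9 were found in both count matrices. The Control library came from saline-treated mice. The AngII+HS library came from mice infused with angiotensin II (AngII) by minipump while drinking water with 0.9% NaCl and 0.2% KCl (high salt, HS), a model of abdominal aortic aneurysm. Mice of both groups were male C57BL/6J aged 5 months, no allele was altered, and tissue was taken on day 28. The design text says that aortas of 5 mice were pooled per library, whereas a protocol label mentions 1 mouse for the Control and 2 for AngII+HS. With 1 library per condition there was no test between conditions, and every interval below is a 95% interval that covers counting error only.

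Complement is a cascade of plasma and tissue proteins that marks microbes, immune complexes and dying cells. In the classical pathway C1q binds its target, the serine proteases C1r and C1s that travel with it become active, and C1s cleaves C4 and C2. The alternative pathway uses C3 and factor B (*Cfb*) to amplify the deposition of C3b, and the small fragment C3a signals through the receptor encoded by *C3ar1*. Liver is the main source of the plasma proteins, while C1q is known as a product of macrophages, and fibroblasts of many tissues make C3, C1r and C1s.

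After filtering, 10269 Control cells and 19734 AngII+HS cells were kept, with a median of 7274 and 3065.5 unique molecular identifiers (UMIs, counts of captured RNA molecules) per cell. They fell into 25 clusters, which were named from marker lists that held no complement gene, and 5 clusters stayed unnamed. Fibroblasts (1949 Control and 4217 AngII+HS cells) carried *Dcn*, *Lum*, *Col1a1*, *Col1a2*, *Col3a1* and *Pdgfra*, and macrophages, with monocytes among them (468 and 4386 cells), came from a pair of clusters. In the first (428 and 2300 cells) all 8 macrophage markers, from *Cd68* and *Csf1r* to *Cd163*, were detected in at least 10% of cells. The second (40 and 2086 cells) was led by *Arg1*. In it 5 markers of the best-scoring list were so detected, and whether that was the macrophage or the monocyte list was not recorded. Vascular smooth muscle cells (VSMCs) made up 49.6% of cells in the Control and 3.30% in AngII+HS, and neutrophils 0.964% and 23.6%. The barcode lists recorded with the samples number 24804 and 11448 entries and match the matrix of the opposite sample in length, so they were set aside and each matrix was taken under the sample that holds it. If the matrices were exchanged too, all directions between conditions would turn over. The lists share 67 barcode sequences. Levels are given as CPM, the UMIs of a gene per 1000000 UMIs summed over all cells of a class in 1 library.

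The 3 genes of C1q encode the A, B and C chains of one hexameric protein and lie side by side on mouse chromosome 4 (GRCm39, chr4:136606009-136626161, minus strand), within 20.15 kb. To show what precedes their starts, the 250 bases before the annotated start of *C1qb* (GRCm38.p6, chr4:136886201-136886450, minus strand) and of *C1qc* (GRCm38.p6, chr4:136892915-136893164, minus strand) are printed here from RefSeq, 5′ to 3′ on the gene's strand. Capitals mark matches of AGGAAG on either strand, the core recognised by PU.1, an Ets factor of myeloid cells.
C1qb: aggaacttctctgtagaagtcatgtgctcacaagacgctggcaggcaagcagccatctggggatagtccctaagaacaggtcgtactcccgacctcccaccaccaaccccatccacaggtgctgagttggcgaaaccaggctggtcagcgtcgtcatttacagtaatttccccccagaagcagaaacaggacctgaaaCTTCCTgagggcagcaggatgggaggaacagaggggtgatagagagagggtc
C1qc: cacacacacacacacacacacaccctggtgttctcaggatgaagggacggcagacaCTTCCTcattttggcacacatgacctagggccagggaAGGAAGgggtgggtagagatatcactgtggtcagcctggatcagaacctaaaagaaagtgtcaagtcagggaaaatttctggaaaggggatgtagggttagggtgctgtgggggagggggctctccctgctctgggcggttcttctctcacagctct
The match in *C1qb* began 52 bases before the start, and those in *C1qc* 194 and 157 bases before it. AGGAAG occurred on either strand in 29.15% of the windows of 27025 genes of the same length, so such a match is common.

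Macrophages were the named class with the highest C1q levels in both libraries. *C1qa* stood at 1969.6 CPM (interval 1910.2 to 2030.3) in Control macrophages and at 1623 CPM (1604.9 to 1641.2) in AngII+HS macrophages. *C1qb* stood at 1595 CPM in the Control and 1483 CPM in the AngII+HS library, and *C1qc* at 1663 and 1249 CPM. Expressed as log2 ratios of AngII+HS over Control, the AngII+HS levels were lower, at -0.28 (-0.33 to -0.23) for *C1qa*, -0.11 (-0.16 to -0.05) for *C1qb* and -0.41 (-0.46 to -0.36) for *C1qc*. The small difference of *C1qb* turned to 0.17 when levels were scaled by TMM instead of total UMIs. Within a library the gap to fibroblasts was wide, with *C1qa* 849-fold higher (555 to 1374) in Control and 82.9-fold higher (76.1 to 90.5) in AngII+HS macrophages. The 8 macrophage markers summed to 4855 CPM in Control and 2599 CPM in AngII+HS macrophages, with *Cd163* at 546 and 45.6 CPM and *Ms4a7* at 317 and 470 CPM, and their part in these differences was not tested.

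**Figure D1:**
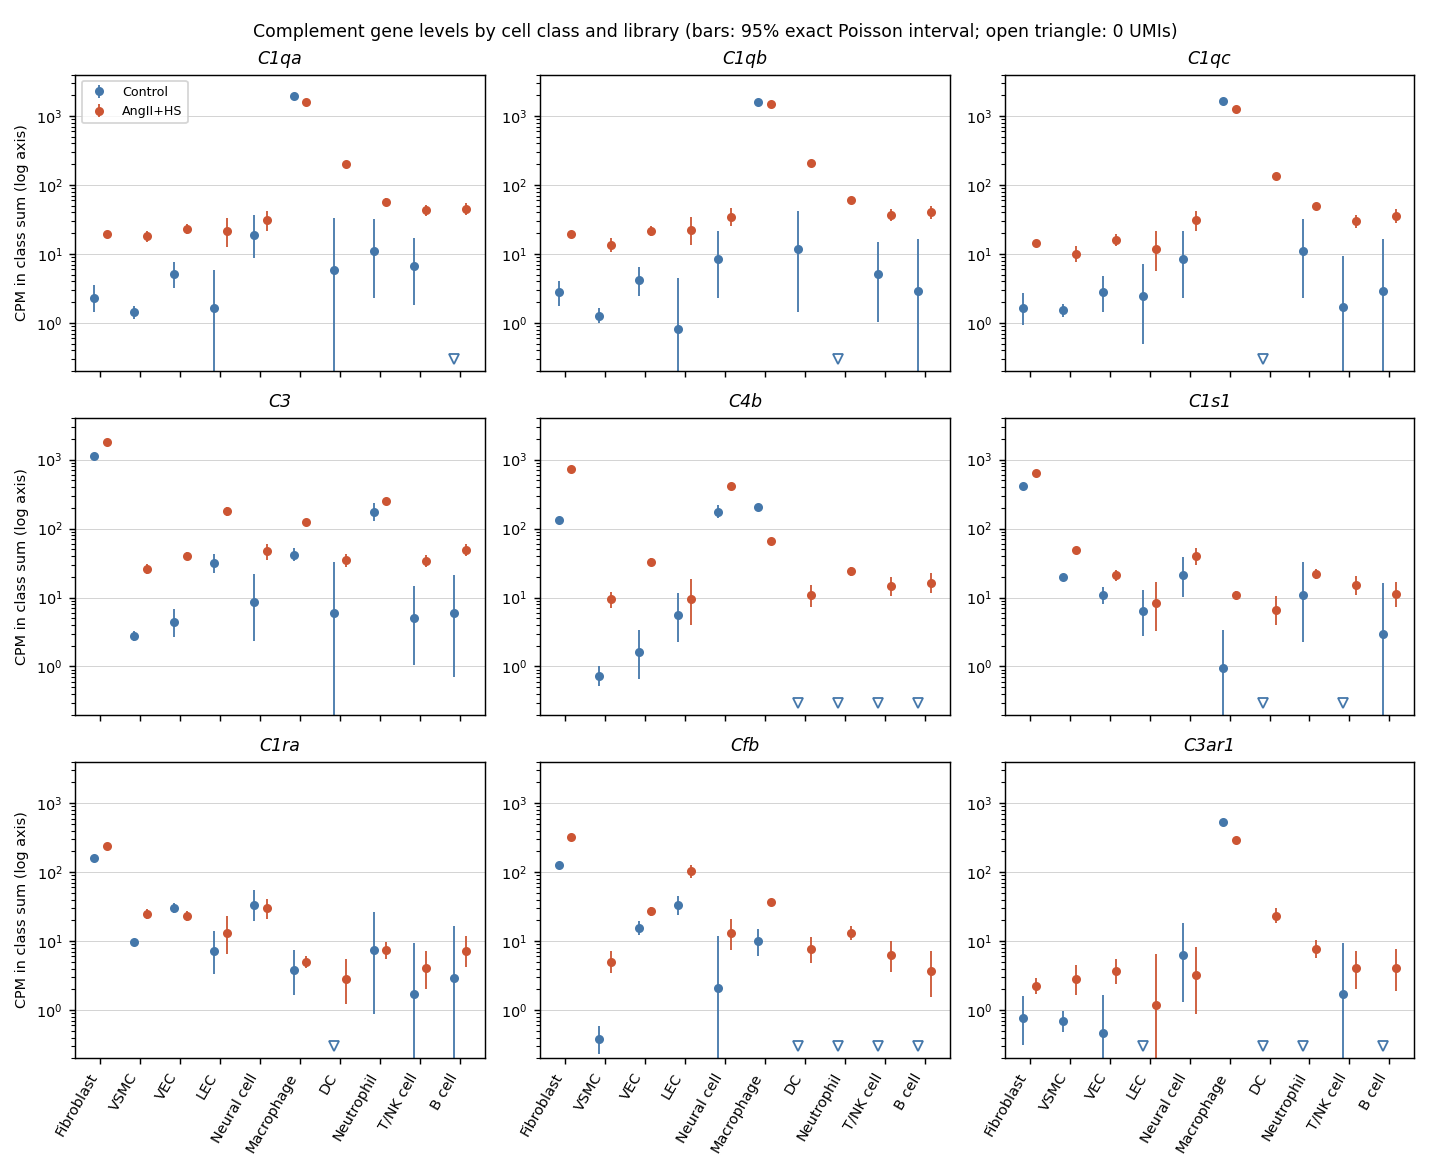
Level of each complement gene (CPM, log axis) in 10 cell classes of the Control (blue) and AngII+HS (red) library, with bars for the 95% exact Poisson interval and open triangles for 0 UMIs. *C1qa*, *C1qb*, *C1qc* and *C3ar1* peak in macrophages, *C3*, *C1s1*, *C1ra* and *Cfb* in fibroblasts, and *C4b* is highest in macrophages (204 CPM) in the Control and in fibroblasts (735 CPM) in the AngII+HS library.

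Macrophages were not uniform in C1q. They were clustered again without complement genes among the variable genes, and the subclusters are called by their leading genes. The Lyve1/Cd163 subcluster, with markers of resident macrophages, held 353 of the Control macrophages (75.4%) and 956 of the AngII+HS macrophages (21.8%). Its *C1qa* level was 2382 CPM in the Control (2305 to 2460) and 2957 CPM in AngII+HS (2899 to 3016), with a log2 ratio of 0.31 (0.26 to 0.37), which is opposite in sign to that of the whole class. The same held for *C1qb* (0.37, 0.31 to 0.43) and *C1qc* (0.15, 0.09 to 0.21).

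The Arg1/Ppbp subcluster held 1 Control cell and 1782 AngII+HS cells (40.6% of AngII+HS macrophages) and was low in C1q, with *C1qa* at 219 CPM (208 to 230), *C1qb* at 284 CPM (272 to 296) and *C1qc* at an interval of 189.8 to 211 CPM. Arginase 1, encoded by *Arg1*, is a marker of alternatively activated macrophages. The Cd5l/Mmp12 subcluster, led also by the lipid-associated genes *Gpnmb* and *Trem2*, had the highest AngII+HS levels, with *C1qa* at 3498 CPM in 487 cells against 1941 CPM (1690.1 to 2218) in 19 Control cells. In the Ctsk/Ly6i subcluster *C1qa* was at 1876 CPM in 25 Control cells and 2002 CPM in 904 AngII+HS cells, with intervals that overlap. The Ly6a2/Gpr141 subcluster, led by monocyte genes such as *Plac8*, was lowest, with *C1qa* at 21.3 CPM (8.56 to 43.9) in 41 Control cells and 133 CPM (112 to 158) in 233 AngII+HS cells. A subcluster of 29 Control cells at a median depth of 864 UMIs (*C1qa* at 2506 CPM) and one of 24 AngII+HS cells led by *Marco* (2221 CPM) had no counterpart in the other library.

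**Figure D2:**
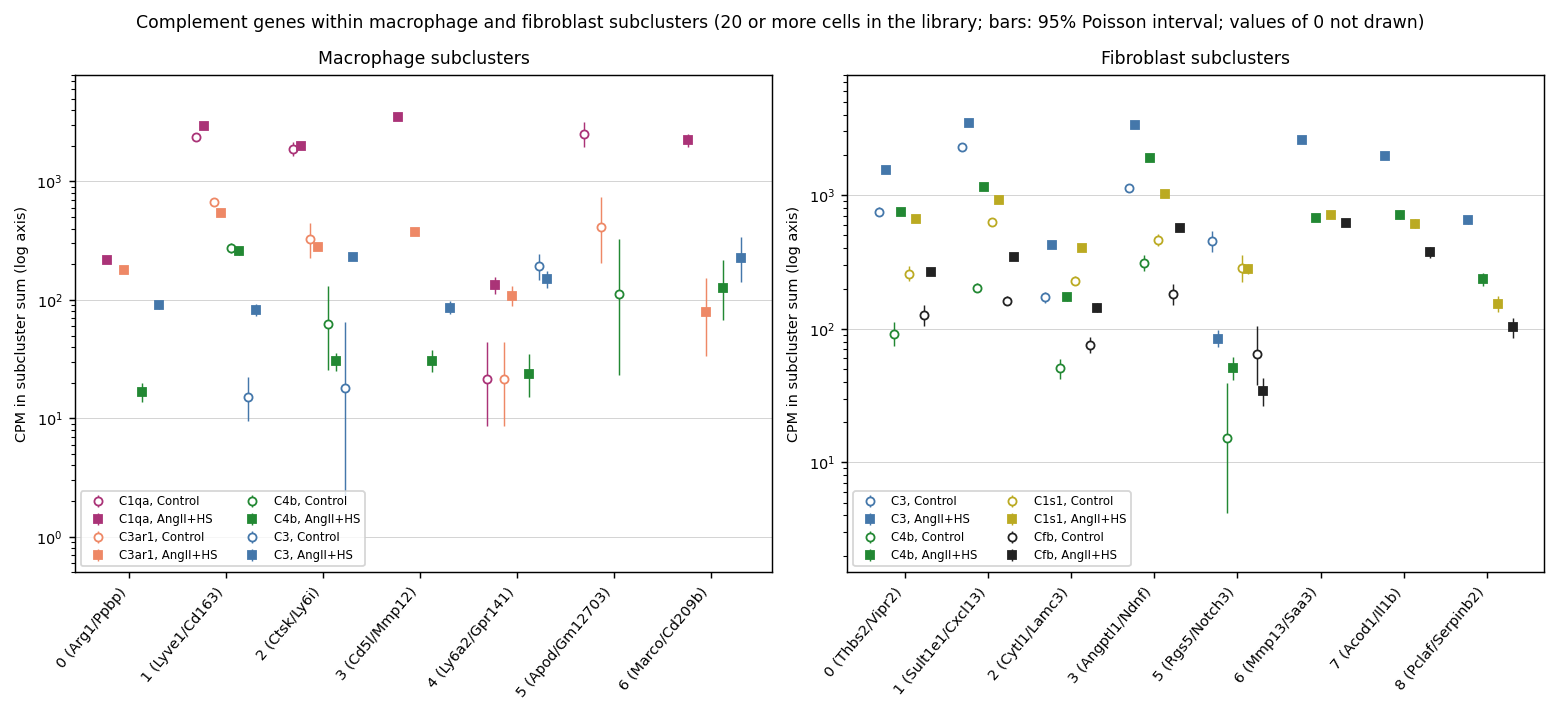
Levels (CPM, log axis) of 4 complement genes in the subclusters of macrophages (left) and of fibroblasts (right), open circles for Control and filled squares for AngII+HS, with 95% Poisson intervals; 1 fibroblast subcluster is not drawn. *C1qa* differs far more between macrophage subclusters (219 to 3498 CPM among the 4 largest AngII+HS subclusters) than between libraries within the Lyve1/Cd163 subcluster, while *C4b* is higher in AngII+HS in every fibroblast subcluster drawn for both libraries.

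Outside macrophages, C1q UMIs per cell were mostly near those of T/NK and B cells. These cells are not known to make C1q, and their UMIs are used here as the background level, since free RNA from broken cells reaches droplets of every class. The 3 genes together gave 0.0435 UMIs per cell in Control and 0.270 in AngII+HS T and B cells, compared with 23.6 and 18.8 in macrophages. Fibroblasts had 0.0313 and 0.340, VSMCs 0.0442 and 0.380, and vascular endothelial cells (VECs) 0.0621 and 0.311. After each cell was thinned to 1000 UMIs, 5.53% of AngII+HS fibroblasts had a UMI of any of the 3 genes, against 9.42% of AngII+HS T/NK cells and 59.9% of AngII+HS macrophages. Before thinning the shares were 25.5%, 20.8% and 69.7%, at median depths of 5449, 2308 and 4021.5 UMIs. *C1qa* was 8.44-fold higher in AngII+HS than in Control fibroblasts (19.6 against 2.32 CPM), next to a 10.2-fold difference in T and B cells. The Control counts were low, at 21 UMIs in fibroblasts, 4 in T/NK cells and 0 in B cells, so both ratios are imprecise, the second most. So the thinned share of AngII+HS fibroblasts lay below that of T/NK cells, while their UMIs per cell lay somewhat above those of T and B cells, and the source of these UMIs was not tested.

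Some other clusters stood above that level. AngII+HS dendritic cells held 2.82 C1q UMIs per cell, with *C1qa* at 203 CPM. These UMIs were unevenly spread over the cells. A UMI of any of the 3 genes was found in 33.6% of the dendritic cells, and of all 3 in 8.50%. In AngII+HS T/NK cells these shares were 20.8% and 0.364%. After thinning, 15.0% of the dendritic cells and 9.42% of the T/NK cells had a UMI of any of the 3. The 165 AngII+HS plasma cells held 0.745 per cell, although their *C1qa* level of 27.3 CPM was below the 42.7 CPM of T/NK cells. A cycling cluster led by *Top2a* and *Pclaf* that scored alike for T/NK cells and macrophages, and so stayed unnamed, had *C1qa* at 1879 CPM (1799 to 1963) in 110 AngII+HS cells, above the macrophage class. The erythroid cluster, with a median of 880 Control and 808.5 AngII+HS UMIs per cell, had *C1qa* at 296 CPM from 27 UMIs and 944 CPM from 89 UMIs. As UMIs not scaled to transcript length, *C1qa* gave 37.3% of C1q UMIs in AngII+HS macrophages, 36.9% in fibroblasts, 38.1% in T and B cells and 37.3% in dendritic cells. In dendritic cells *C1qb* gave 38.2% (35.8% to 40.7%) and *C1qc* 24.5% (22.4% to 26.7%), against 34.0% (33.7% to 34.4%) and 28.7% (28.4% to 29.0%) in the whole macrophage class. These intervals do not cover differences between cells. The mix also varied among AngII+HS macrophages. *C1qb* stood above *C1qa* in the Arg1/Ppbp (284 against 219 CPM) and Ly6a2/Gpr141 (279 against 133 CPM) subclusters. It stood below *C1qa* in the Lyve1/Cd163, Ctsk/Ly6i, Cd5l/Mmp12 and *Marco*-led ones. A mix particular to dendritic cells was not tested.

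**Figure D3:**
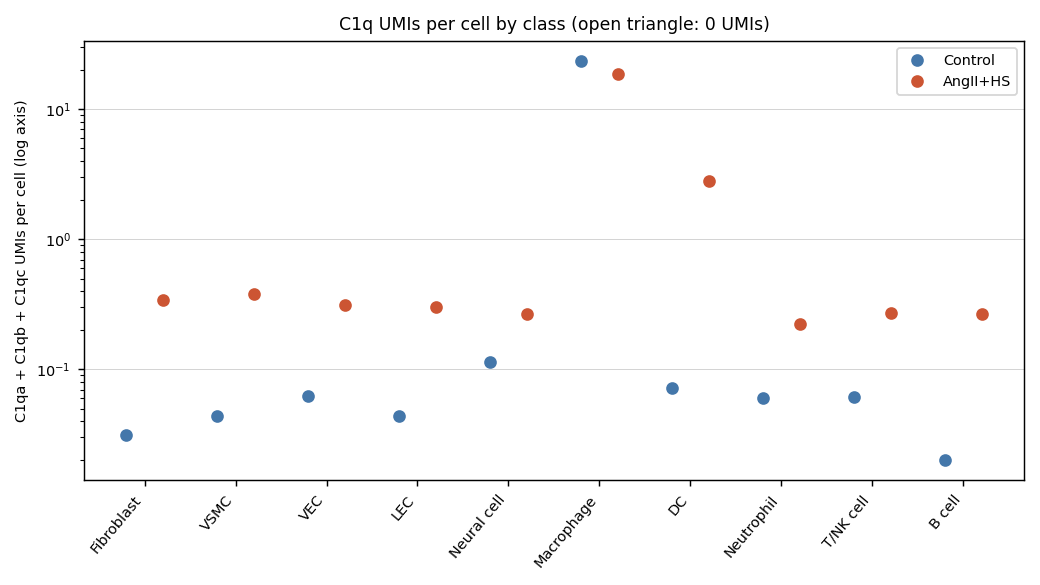
UMIs of *C1qa*, *C1qb* and *C1qc* together per cell (log axis) in 10 cell classes of the Control (blue) and AngII+HS (red) library. Macrophages stand at 23.6 and 18.8, and in the AngII+HS library all other classes drawn but dendritic cells (2.82) lie between 0.222 and 0.380, T/NK and B cells included.

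*C3ar1*, the receptor for C3a (GRCm39, chr6:122823393-122833122, minus strand), followed the same cells. Its level was 533 CPM (502 to 565) in Control and 292 CPM (285 to 300.2) in AngII+HS macrophages, a log2 ratio of -0.87 (-0.96 to -0.77). The Lyve1/Cd163 subcluster had 665 CPM (625 to 707) in the Control and 544 CPM (519 to 569) in the AngII+HS library, the Cd5l/Mmp12 subcluster 478 and 372 CPM, and the AngII+HS Arg1/Ppbp subcluster 179.9 CPM. The lower class level stood beside lower levels within the Lyve1/Cd163 subcluster and the many Arg1/Ppbp cells, and the part of each was not tested. Fibroblasts had 7 UMIs in the Control and 61 in the AngII+HS library, 0.0145 per AngII+HS cell against 0.00954 in T and B cells, and neutrophils 0.0103. Across 29 class sums of both libraries, which share libraries and their depth, *C3ar1* resembled *C1qb* (Pearson r = 0.93), *C1qa* (0.93) and *Ms4a7* (0.93) most, and *C1qa* resembled *C1qc* (0.97), *C1qb* (0.96) and *Ms4a7* (0.96).

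*C3*, the protein on which all pathways converge, lies on chromosome 17 (GRCm39, chr17:57510964-57535155, minus strand). Its 250 bases before the annotated start (GRCm38.p6, chr17:57228137-57228386, minus strand, from RefSeq) are shown because they hold, in capitals, a match of TTGCNNAA, a core of sites bound by C/EBP factors, which are known regulators of acute-phase genes.
C3: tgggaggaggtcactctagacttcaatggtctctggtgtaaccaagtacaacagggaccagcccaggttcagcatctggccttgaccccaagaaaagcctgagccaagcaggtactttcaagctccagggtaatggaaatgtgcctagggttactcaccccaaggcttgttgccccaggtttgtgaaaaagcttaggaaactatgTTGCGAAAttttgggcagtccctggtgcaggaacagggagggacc
The match began 45 bases before the start, and 9.554% of the 27025 windows held TTGCNNAA on either strand. Of the 6 genes with a window in the table, *C1s1* held AGGAAG in both of its windows and TTGCNNAA in one of them, and *C1ra* and *C3ar1* held neither. No window held TTCNNNGAA, a STAT-type core found in 7.179% of the windows, or the interferon-stimulated response element core, found in 3.038%. These matches are letters in a window, and binding was not measured.

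Fibroblasts had the highest *C3* level of the named classes in both libraries, 1135 CPM (1113 to 1157) in Control and 1784 CPM (1768 to 1800.3) in AngII+HS, a log2 ratio of 0.65 (0.62 to 0.68). The fibroblast level was 27.0-fold (21.9 to 33.6) that of macrophages in the Control and 14.4-fold (13.8 to 15.0) in the AngII+HS library. In both libraries the Sult1e1/Cxcl13 subcluster, with genes of the Pi16/Dpp4 adventitial program, was highest, at 2301 and 3498 CPM, and the Cytl1/Lamc3 subcluster was low, at 172 and 421 CPM. The Angptl1/Ndnf subcluster had 1137 CPM (1059 to 1218) in 121 Control and 3330 CPM (3271 to 3390.1) in 488 AngII+HS cells. A Mmp13/Saa3 subcluster of 373 cells, seen in the AngII+HS library and not in the Control, had 2581 CPM. The Rgs5/Notch3 subcluster, led by genes of mural cells, went the other way, from 451 CPM (374 to 541) to 84.2 CPM (72.4 to 97.4). It held only 42 Control cells, with 118 *C3* UMIs, beside 386 AngII+HS cells.

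Immune cells also held *C3* above the background of T and B cells (0.0217 and 0.0959 UMIs per cell). Macrophages had 42.0 CPM (33.8 to 51.7) in the Control and 124 CPM (119 to 129) in the AngII+HS library, or 0.190 and 0.537 UMIs per cell. In the Control, 63 of their 89 *C3* UMIs came from the monocyte-led Ly6a2/Gpr141 subcluster (192 CPM), where the AngII+HS level was 149 CPM and the intervals overlap, while in the Lyve1/Cd163 subcluster the level was 15.0 CPM (9.51 to 22.5) and 82.2 CPM (72.8 to 92.5). Neutrophils had 177 CPM (130.3 to 234) and 250.2 CPM (238 to 263), with 0.485 and 0.334 UMIs per cell. Lymphatic endothelial cells (LECs) had 31.6 CPM (22.4 to 43.1) and 178 CPM (150.3 to 208), a 5.63-fold difference (3.93 to 8.22). VSMCs, at 0.0291 and 0.236 UMIs per cell, and VECs, at 0.0227 and 0.207, were within 3 times the T and B cell value.

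*Cfb*, the protease of the alternative pathway (GRCm39, chr17:35074852-35081559, minus strand), was also highest in fibroblasts, at 125 CPM (118 to 133) in the Control and 326 CPM (319 to 333) in the AngII+HS library, a 2.60-fold difference (2.44 to 2.77). Among fibroblast subclusters it was highest in the AngII+HS Mmp13/Saa3 cells, at 624 CPM (601 to 648), a subcluster led by acute-phase and tissue injury genes such as *Saa3* and *Lcn2*. The Angptl1/Ndnf subcluster had 181 CPM (151 to 215) and 570.3 CPM (546 to 596), and the Rgs5/Notch3 subcluster 65.0 CPM (37.9 to 104) and 34.0 CPM (26.6 to 42.7). Of the named classes LECs came next, at 33.2 CPM (23.8 to 45.0) and 103 CPM (83.0 to 127). In VECs *Cfb* was at 15.7 and 27.1 CPM, or 0.0811 and 0.140 UMIs per cell against 0 and 0.0119 in T and B cells. Macrophages had 9.92 CPM (6.14 to 15.2) and 36.9 CPM (34.2 to 39.7), with 76.7 CPM in the AngII+HS Ctsk/Ly6i and 62.0 CPM in the AngII+HS Lyve1/Cd163 subcluster against 10.6 CPM in the Arg1/Ppbp subcluster. *Il33* was the gene most like *Cfb* over the 29 class sums (r = 0.85), and *Igfbp6* the one most like *C3* (0.87).

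*C4b* encodes complement C4, the substrate of C1s (GRCm39, chr17:34947354-34962912, minus strand), and was the gene whose named class of highest level differed between the libraries. In the Control, macrophages were at 204 CPM (185 to 224), neural cells, a class with Schwann cell markers, at 176 CPM (140.4 to 219) and fibroblasts at 134 CPM (126 to 142). The intervals of macrophages and neural cells overlap, and so do those of neural cells and fibroblasts, but macrophages stood 1.52-fold (1.36 to 1.70) above fibroblasts. In the AngII+HS library fibroblasts were at 735 CPM (725 to 745), neural cells at 413 CPM (378 to 451) and macrophages at 65.3 CPM (61.7 to 69.0), and these 3 intervals do not overlap. Fibroblasts were thus 11.3-fold (10.6 to 11.9) above macrophages there. All 230 Control T and B cells together had 0 UMIs of *C4b*, and the AngII+HS ones 0.0362 per cell, compared with 0.282 in AngII+HS macrophages, 0.170 in VECs and 0.0320 in neutrophils.

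Within fibroblasts the log2 ratio of *C4b* was 2.46 (2.37 to 2.54), and it was above 0 in each subcluster named here. Levels were 310.0 and 1907 CPM in the Angptl1/Ndnf, 203 and 1161 CPM in the Sult1e1/Cxcl13, 92.0 and 744 CPM in the Thbs2/Vipr2 and 50.4 and 173 CPM in the Cytl1/Lamc3 subcluster. The lowest was the Rgs5/Notch3 subcluster, with 15.3 CPM (4.17 to 39.2) and 50.7 CPM (41.6 to 61.2). Neural cells differed by 2.34-fold (1.86 to 2.99) in the same direction. Macrophages as a class had a log2 ratio of -1.64 (-1.80 to -1.48). In the Lyve1/Cd163 subcluster, however, *C4b* stood at 274 CPM (248 to 301) and 257 CPM (240 to 274), a log2 ratio of -0.09 whose interval, -0.26 to 0.08, holds 0. The other macrophage subclusters were lower, at 16.6 CPM in the AngII+HS Arg1/Ppbp and 30.3 CPM in the AngII+HS Ctsk/Ly6i cells. The share of the Lyve1/Cd163 subcluster among macrophages was 75.4% and 21.8%, and its part in the class level was not tested. *C4b* has a near copy, *C4a*, which shares 20.19% of 90-base windows with it in the last 500 transcript bases, so some of its reads may not have been assigned, and *C4a* held 120 UMIs in all.

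*C1s1* and *C1ra*, the proteases of the C1 complex, lie next to each other on chromosome 6 (GRCm39, chr6:124507297-124559389, minus strand, and chr6:124489364-124500402, plus strand) and were stromal in both libraries. Fibroblasts had *C1s1* at 411 CPM (398 to 424) and 637 CPM (628 to 647), a log2 ratio of 0.63 (0.58 to 0.69). Their *C1ra* level was 160.1 CPM (152 to 169) and 236 CPM (230.2 to 242), a 1.47-fold difference (1.39 to 1.56). Both were highest in the Sult1e1/Cxcl13 and Angptl1/Ndnf subclusters, *C1s1* with 635 and 925 CPM in the former and 463 and 1022 CPM in the latter.

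Mural cells also held both proteases. An unnamed cluster led by *Pln* and *Nrip2*, which carried markers of both VSMCs and pericytes, had *C1s1* at 224 CPM (199.95 to 251) in 167 Control and 510.2 CPM (469 to 554) in 217 AngII+HS cells, a 2.27-fold difference (1.98 to 2.62). Its *C1ra* level was 33.4 CPM (24.4 to 44.5) and 64.4 CPM (50.4 to 81.2), next to 34.0 and 29.9 CPM in neural cells, so in the Control *C1ra* did not set it apart from them. VSMCs were far lower, with *C1s1* at 19.8 CPM (18.6 to 21.1) and 48.4 CPM (42.9 to 54.3) and *C1ra* at 9.63 and 24.7 CPM. Being many and deeply sequenced in the Control, they still gave 19.6% of its *C1s1* and 22.8% of its *C1ra* UMIs, against 1.49% and 2.04% in the AngII+HS library. VECs had *C1ra* at 30.2 CPM (25.3 to 35.9) and 23.1 CPM (19.5 to 27.2), above the *C1ra* background of T and B cells in UMIs per cell (0.156 and 0.119 against 0.00870 and 0.0129). Macrophages had 2 *C1s1* UMIs in the Control and 205 in the AngII+HS library, an 11.4-fold higher level (3.13 to 95.1), and T and B cells differed by 12.5-fold (2.16 to 501). In the AngII+HS library macrophages held 0.0467 *C1s1* UMIs per cell and T and B cells 0.0315. A UMI was found in 4.47% of AngII+HS macrophages, 3.64% of T/NK cells and 2.41% of B cells. After thinning the shares were 1.18% (0.879% to 1.56%), 1.04% (0.518% to 1.85%) and 0.94% (0.43% to 1.78%), with intervals that overlap. Macrophages thus had a thinned share like that of T/NK and B cells, but somewhat more UMIs per cell. The source of these UMIs was not tested. *C1ra* was most like *Serping1* over the 29 class sums (r = 0.93), the gene of the C1 inhibitor. The copies *C1s2* and *C1rb*, which share 2.676% and 11.19% of such windows with *C1s1* and *C1ra*, had 28 and 24 UMIs.

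**Figure D4:**
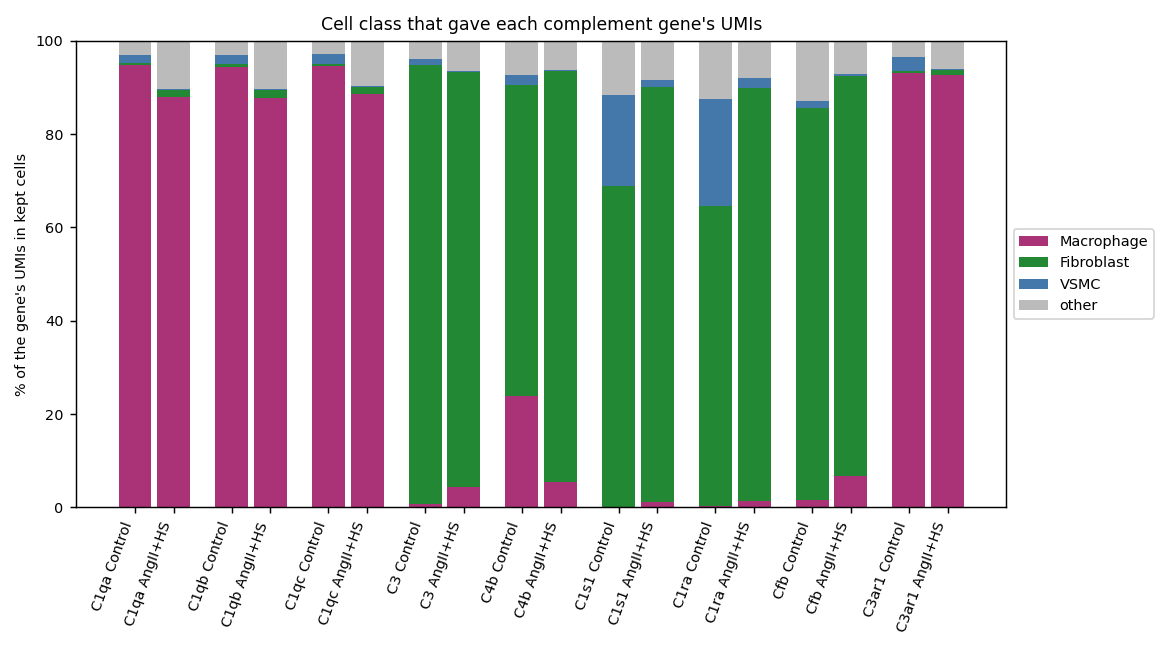
Share of each gene's UMIs (%, y axis) that came from macrophages, fibroblasts, VSMCs and all other kept cells in each library. Macrophages gave 87.8% to 94.8% of C1q UMIs, and fibroblasts gave 64.3% of *C1ra* UMIs in the Control and 88.6% in the AngII+HS library.

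By share of all UMIs, which also depends on how many cells of each class were captured, macrophages gave 94.8% of *C1qa* UMIs in the Control and 87.9% in the AngII+HS library, and 93.0% and 92.7% of those of *C3ar1*. Fibroblasts gave 94.0% and 88.9% of *C3*, 84.1% and 85.7% of *Cfb*, 68.9% and 89.0% of *C1s1*, and 66.7% (64.5% to 68.9%) and 88.0% (87.6% to 88.4%) of *C4b* UMIs. Macrophages gave 23.8% (21.8% to 25.8%) of *C4b* UMIs in the Control and 5.49% (5.20% to 5.79%) in the AngII+HS library. A cluster of low depth led by *Igfbp6* and *Dpep1*, which carried fibroblast markers but stayed unnamed, had *C3* at 393 and 810.4 CPM, *C4b* at 27.9 and 266 CPM and *C1s1* at 289 and 501 CPM.

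Counted over the 9 genes, fibroblasts were the named class of highest level for 4 in the Control and 5 in the AngII+HS library, and macrophages for 5 and 4, with *C4b* the gene that differed. All 9 genes passed the minimum of 20 UMIs, summed over both libraries, in each of the 2 classes. In fibroblasts *C1qc* (15 Control and 386 AngII+HS UMIs) and *C3ar1* (7 and 61) passed it only through the AngII+HS library. The same held in macrophages for *C1s1* (2 and 205) and *C1ra* (8 and 95). The counts below include these genes. In fibroblasts all 9 log2 ratios had an interval above 0, where 19.3% of 15790 genes did, and 6 were at least 2-fold higher in AngII+HS, where 7.38% of genes were. An interval below 0 was found for 0 of the 9, against 34.9% of genes, and 0 were at least 2-fold lower, against 8.84% of genes. Of the 6, *C4b* and *Cfb* stood far above the T and B cell level in UMIs per cell, at 4.71 and 2.09 against 0.0362 and 0.0119 in the AngII+HS library, whereas *C1qa*, *C1qb*, *C1qc* and *C3ar1* were within 3 times that level. With the T and B cell UMIs per cell subtracted, 5 genes were higher, 2 of them at least 2-fold. Here higher means a log2 ratio above 0, without the interval used for the count of 9. Higher levels were not limited to fibroblasts. In VECs 6 of 9 genes tested were at least 2-fold higher, where 7.93% of all genes were. LECs had 4 of 5 (7.73% of all genes) and neural cells 4 of 7 (5.88%). The C1q genes among them were near the T and B cell level in UMIs per cell. Several passed the minimum only through the AngII+HS library, such as *C4b* in VECs, at 1.62 and 33.1 CPM (7 and 205 UMIs).

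In macrophages 3 of 9 genes (*C3*, *C1s1* and *Cfb*) had an interval above 0, where 19.5% of 13614 genes did, and all 3 were at least 2-fold higher, where 10.8% of genes were. Of these *C1s1*, with 2 Control UMIs, was close to the T and B cell level. All 6 fibroblast markers were also higher in AngII+HS macrophages, none was at 0, and they summed to 151 and 622 CPM, next to 153 and 905 CPM in T and B cells. Their part in the 3 differences was not tested. *C3* held 0.190 and 0.537 UMIs per macrophage in the Control and AngII+HS library, next to 0.0217 and 0.0959 in T and B cells. *Cfb* held 0.0449 and 0.160, next to 0 and 0.0119. Another 5 (*C1qa*, *C1qb*, *C1qc*, *C4b* and *C3ar1*) had an interval below 0, where 29.0% of genes did, and *C4b* alone was at least 2-fold lower, where 18.0% of genes were. The interval of *C1ra* held 0. The median log2 ratio of the 9 genes was 1.46 in fibroblasts, beside -0.16 over all genes tested, and -0.11 in macrophages, beside -0.14. The fibroblast median falls on *C3ar1* (7 and 61 UMIs), 1 of the 4 genes within 3 times the T and B cell level. These 4 genes thus set its value, and it does not describe the genes above that level.

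**Figure D5:**
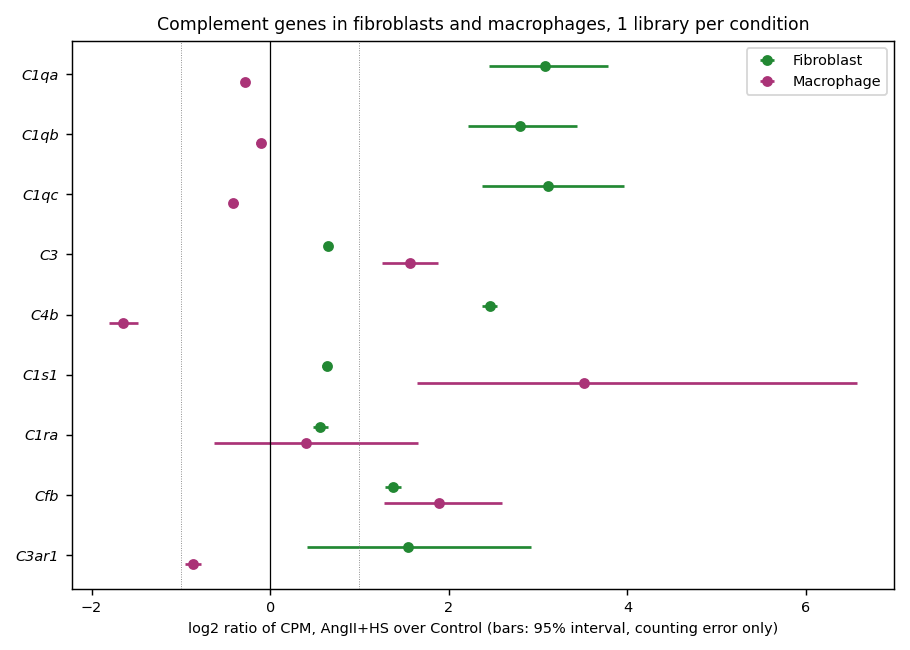
Log2 ratio of CPM, AngII+HS over Control (x axis), of each gene in fibroblasts (green) and macrophages (magenta), with bars for the 95% counting interval and dotted lines at a 2-fold difference. *C4b* lies at 2.46 in fibroblasts and -1.64 in macrophages.

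The other genes of the pathway came from a list of 42. Among its initiators and proteases, *C2*, the partner of C4, was at 70.5 and 183 CPM in fibroblasts and at 10.9 and 3.32 CPM in macrophages, the same pair of directions as *C4b*. *Fcna*, a ficolin of the lectin pathway, was lower in AngII+HS macrophages, at 132 and 23.2 CPM, and so was the collectin *Colec12*, at 131 and 11.7 CPM. Of the 14 genes of this role, 9 passed the minimum of 20 UMIs in fibroblasts, of which 4 (*C2*, *Colec11*, *C1s2* and *Fcna*) were at least 2-fold higher in AngII+HS, where 7.38% of all genes were, and 0 at least 2-fold lower, where 8.84% were. *C1s2* and *Fcna* had 1 Control UMI each, and their ratios were 6.70 (1.07 to 278) and 10.4 (1.73 to 424). Both are in the count of 4 but passed the minimum only through the AngII+HS library. *Fcna* was highest in macrophages in both libraries, and the source of its fibroblast UMIs was not tested. In macrophages 4 passed, and all 4 (*C2*, *C1rl*, *Fcna* and *Colec12*) were at least 2-fold lower, where 18.0% of all genes were, although the interval of *C1rl* (0.237 to 1.07) holds a ratio of 1.

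Regulators restrain the cascade on host cells, and several were well detected in fibroblasts. *Serping1* was at 1805 and 2491 CPM and *Clu* at 63.2 and 218 CPM. *Cd55*, a membrane protein that dissociates the C3 convertases, was lower, at 208 and 63.7 CPM. Of 9 regulators tested in fibroblasts, 3 (*Clu*, *Cd59a* and *Cfi*) were at least 2-fold higher and 2 (*Cd55* and *Cd46*) at least 2-fold lower, where 7.38% and 8.84% of all genes were. *Cfi* had 3 Control UMIs, and its ratio was 21.6 (7.27 to 105). In macrophages *Serping1*, at 9.45 and 37.0 CPM, was at least 2-fold higher, but it was at 8.56 and 52.0 CPM in T and B cells, and the fibroblast markers given above for macrophages moved with it. *Cd55*, at 10.4 and 4.59 CPM, was at least 2-fold lower there.

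Among terminal genes, *C7* was at 499 CPM (484 to 514) in Control and 101 CPM (97.7 to 105) in AngII+HS fibroblasts, opposite to *C3* and *C4b*. Of the 3 terminal genes tested in fibroblasts, *C6* had 2 and 42 UMIs, a ratio of 7.04 (1.83 to 60.0), and *C7* and *C9* were at least 2-fold lower, where 8.84% of all genes were. In macrophages *C9*, with 42 and 69 UMIs, was at least 2-fold lower, and *C7* had 0 and 26 UMIs, with an AngII+HS level of 1.37 CPM that was under the 1.42 CPM that 3 counts would give in the Control, so no difference could be read. Of the receptors for complement fragments, macrophages had *C5ar1* at 862 and 526 CPM and *Itgam*, a chain of the iC3b receptor CR3, at 276 and 510.2 CPM. Of 8 receptors tested there, 1 (*Itgax*, at 5.67 and 25.4 CPM) was at least 2-fold higher and 2 (*C5ar2* and *Vsig4*) at least 2-fold lower, where 10.8% and 18.0% of all genes were. In fibroblasts 3 of 5 tested (*C5ar1*, *Cd93* and *Itgb2*) were at least 2-fold higher, where 7.38% of all genes were, with *C5ar1* at 1.88 and 10.7 CPM. In T and B cells *C5ar1* was at 2.14 and 15.0 CPM. In UMIs per AngII+HS cell, fibroblasts and T and B cells held 0.0685 and 0.0353 of *C5ar1*, 0.0372 and 0.0372 of *Cd93*, and 0.0294 and 0.182 of *Itgb2*, a leukocyte integrin chain. All 7 neutrophil markers were also higher in AngII+HS fibroblasts, none was at 0, and they summed to 99.1 and 301 CPM, next to 13.9 and 301 CPM in T and B cells. Most of the Control fibroblast sum was *G0s2*, at 89.8 and 98.3 CPM in fibroblasts and 2.14 and 22.7 CPM in T and B cells. A fibroblast subcluster led by *Acod1*, *Il1b*, *S100a9* and *S100a8* held 5 Control and 125 AngII+HS cells. The part of these markers and cells in the receptor differences was not tested. Of the alternative pathway's stabilising factor properdin, encoded by *Cfp*, macrophages had 129 and 156 CPM. Of the 2 listed genes of that pathway, *Cfd* was at least 2-fold higher in both classes. Of all genes, 7.38% were so in fibroblasts and 10.8% in macrophages. *Cfd* had 0 and 264 UMIs in fibroblasts, 8 and 386 in macrophages, and 1 and 107 in T and B cells. Per AngII+HS cell these were 0.0626, 0.0880 and 0.0510. In both classes *Cfd* passed the minimum of 20 UMIs only through the AngII+HS library. With 0 Control UMIs, its fibroblast ratio exists only because part of a UMI was added to each count. The source of its UMIs was not tested.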

How the data were processed

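Droplet single-cell RNA sequencing was done on 1 library per condition. The authors deposited raw UMI counts per gene and barcode. Matrix headers name Cell Ranger 8.0.1, whereas the methods name version 7.0, and the labels and methods name different mouse genome builds (mm10 and GRCm39). The matrices held 11448 Control and 24804 AngII+HS barcodes with 86618995 and 117146856 UMIs.

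The cell filter required 500 or more UMIs, 200 or more detected genes and a mitochondrial share under 20%. The highest Scrublet scores (scanpy 1.11.5) were removed as doublets at 0.8% per 1000 cells, 9.03% of Control and 19.6% of AngII+HS cells. Libraries were integrated with Seurat 5.3.0 (2000 variable genes without complement genes, 30 components, Louvain resolution 0.8). Classes were named from marker lists, and monocytes were joined with macrophages. Subclusters used 20 components and resolution 0.4.

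Counts were summed per class and library and divided by the class total (CPM). Intervals were exact Poisson for levels, Clopper-Pearson for shares and conditional binomial for ratios, at 95%, and cover counting error only. Ratios over all genes used genes with at least 20 UMIs over both libraries, with 0.5 UMIs added to each count for the 2-fold rule and the medians. Scripts were tested on simulated data. edgeR 4.0.16 gave TMM factors as an alternative. T and B cells of each library served as the background level. All 9 genes were named, other complement genes came from a list of 42 (named with at least 200 UMIs, near copies and short counts excepted, which were named after their values were seen), and like genes were the 3 with the highest Pearson correlation of log2(CPM + 1). Some items are not reported here. Members and lists were chosen with earlier results of these data known.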

Additional observations from a re-analysis of the deposited data

Results flagged for a closer look

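*C4b* had opposite directions in the cell classes compared, with a log2 ratio of AngII+HS over Control of -1.64 in macrophages and 2.46 in fibroblasts. With 1 library per condition, the difference between these ratios was not tested.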

How the results depend on the processing

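Clustering, cell filter, doublet rate, scaling, weighting and free-RNA correction were varied one at a time. Subtracting the level of T and B cells left 5 genes higher in AngII+HS fibroblasts, by the log2 ratio without an interval, and 2 of them at least 2-fold. Subtracting their UMIs per cell, an alternative added after seeing the data, also gave 5 and 2. The C1q genes and *C3ar1* then have no fibroblast level in at least one library. In UMIs per cell, Control fibroblasts lay under Control T and B cells for *C1qa* (0.0108 against 0.0174) and *C1qb* (0.0128 against 0.0174). The same held for *C1qc* (0.00770 against 0.00870) and *C3ar1* (0.00359 against 0.00435). These Control values rest on few UMIs, for *C3ar1* 7 in fibroblasts and 1 in T/NK cells. Without doublet removal, fibroblasts were the class of highest level for 3 genes in the AngII+HS library instead of 5, since the adipocyte-marker cluster was above them for *C3* and *C4b*. The log2 ratio of *C1qb* in macrophages was 0.17 under TMM scaling, and the cause was not tested. Of the other alternative log2 ratios, 196 lay within the 95% interval of the main value and 44 outside it, all with the same sign as the main value. Of the alternative shares of UMIs, 304 lay within the main interval and 200 outside it. All 36 thinned shares of cells lay outside it. Without a filter beyond 1 UMI, 17.6% of genes in fibroblasts and 33.8% in macrophages were at least 2-fold lower, instead of 8.84% and 18.0%. The shares at least 2-fold higher were then 9.72% and 8.72%, instead of 7.38% and 10.8%. The ratio of *C4b* ranged from 2.17 to 2.77 in fibroblasts and from -2.03 to -1.37 in macrophages, and that of *C1qa* in macrophages from -0.57 to -0.01. No paired analysis was possible because each condition has 1 library and no result comes from a test. Genes with few UMIs, such as *C1s1* and *C1ra* in macrophages, are limited by depth.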

Other observations

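One more complement source appeared when no doublets were removed, and it was singled out after its values were seen. A cluster of 102 AngII+HS cells and 1 Control cell carried adipocyte markers, led by *Cfd*, *Car3* and *Adipoq*. In its AngII+HS cells *C3* stood at 2332 CPM (95% Poisson interval 2250 to 2417) and *C4b* at 1146 CPM (1089 to 1205), above the 1506 and 589 CPM of AngII+HS fibroblasts in the same run. None of these 102 cells, that is 0, was among the retained cells, so they entered no value of the report. Whether they are single adipocytes was not tested.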
